A study of Mus musculus with 29 samples.

Results

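The regions described here are the sites where IRF8 was already found in the microglia of 9-day-old mice (P9) and was found again in adult microglia. For each age, overlapping IRF8 peaks (1 bp or more) were joined, and a joined region was kept as a consensus region if 2 or more libraries contributed to it. Adult microglia had 16935 such regions, and 1314 of them (7.76%) overlapped a P9 consensus region. These 1314 are called early regions below, and the remaining 15621 are called the other adult regions. Early regions were chosen by their P9 and adult IRF8 peaks, so those values are given as a description and support no test.

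The binding maps came from CUT&RUN, which uses an antibody-guided nuclease to release the DNA next to a protein for sequencing. IRF8 was mapped through its GFP tag in female IRF8-EGFP mice, with antibody ab290, in sorted microglia at P9 (4 libraries), at P14 (3 libraries) and in adults (3 libraries), and in peritoneal macrophages (3 libraries). PU.1, H3K27ac and H3K4me1 were mapped in sorted microglia of female adult wild-type (WT) and IRF8KO mice, with 2 libraries for each target and genotype. The growth protocol, attached to every library, gives 3 months for WT and IRF8KO brains, which was taken as the age of all adult mice. Brain cells were fixed with formaldehyde before sorting for the transcription factors, per the treatment protocol. The source field of the macrophage libraries names microglia, and the titles were followed. Macrophage IRF8 lay at a start of 3 of 8 peritoneal macrophage markers, and IRF8 of P9, P14 and adult microglia at 0 of 8. Macrophage IRF8 also lay at 5 of 10 microglial markers, where P9, P14 and adult IRF8 lay at 3, 7 and 9. It lay at 2 of 8 oligodendrocyte markers as well, so these counts do not settle the label. No agent was given to any group. Per the labels, the P9 libraries were 4 of 7 made and the IRF8KO H3K27ac libraries 2 of 3, and the IRF8KO allele, and whether IRF8 was lost in all cells of the mouse, are not stated. The labels do not say whether replicates came from separate animals, so each SD and p-value covers the spread between libraries, which may be technical. IRF8 was not mapped in IRF8KO cells in the libraries used here, so the peak lists give no check of the deletion.

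IRF8 is a transcription factor of the interferon regulatory family that myeloid cells need for their development and that microglia keep expressing through life. It binds DNA poorly on its own and often pairs with PU.1, an ETS factor that defines macrophages, on a composite element that joins an ETS half-site to an IRF half-site. H3K4me1 marks enhancers in general, and H3K27ac marks enhancers and promoters that are active.

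The composite element was searched on both strands as GGAA and GAAA with any 2 bases (NN) between them. Of the genes with a fixed place in this account, the sequences below are the first 8 whose early region held it within 100 bp of the centre of its P9 region, outside exons, in order of the number of P9 libraries and P9 peak strength. The requirement of 100 bp was added after the values were seen, and the P2ry12 sequence is an extra one, picked after its values were seen because PU.1 and H3K27ac were absent there in IRF8KO. Each is the plus strand of mm10 (GRCm38.p6) with 45 bases on either side of the element, which stands in capitals and appears as its reverse complement where it lies on the minus strand.
Irf5, chr6:29524165-29524264, intergenic, upstream of the gene: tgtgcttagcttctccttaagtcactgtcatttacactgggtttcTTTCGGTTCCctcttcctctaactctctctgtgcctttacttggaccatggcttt
Hdhd5, chr6:120567634-120567733, intergenic: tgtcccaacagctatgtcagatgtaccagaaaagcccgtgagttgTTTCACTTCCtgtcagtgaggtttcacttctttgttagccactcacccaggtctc
Zfp770, chr2:114233007-114233106, intergenic: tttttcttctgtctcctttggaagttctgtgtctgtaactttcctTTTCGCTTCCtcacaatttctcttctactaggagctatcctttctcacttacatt
Myc, chr15:61999725-61999824, intergenic, downstream of the start: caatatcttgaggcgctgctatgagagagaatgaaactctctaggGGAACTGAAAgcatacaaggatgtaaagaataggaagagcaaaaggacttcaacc
Fcgr1, chr3:96300882-96300981, intergenic, upstream: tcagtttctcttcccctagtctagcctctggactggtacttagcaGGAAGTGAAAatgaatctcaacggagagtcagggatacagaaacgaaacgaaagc
Fli1, chr9:32500985-32501084, intron: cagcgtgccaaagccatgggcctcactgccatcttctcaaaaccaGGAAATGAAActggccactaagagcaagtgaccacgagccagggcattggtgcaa
Gcfc2, chr6:81447890-81447989, intergenic: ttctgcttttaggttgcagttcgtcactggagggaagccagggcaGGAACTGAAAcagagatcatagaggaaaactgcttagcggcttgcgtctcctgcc
Atf3, chr1:191198035-191198134, intron: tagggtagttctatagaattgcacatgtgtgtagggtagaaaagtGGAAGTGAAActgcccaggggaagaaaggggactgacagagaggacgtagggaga
P2ry12, chr3:59225561-59225660, intron, also inside Med12l: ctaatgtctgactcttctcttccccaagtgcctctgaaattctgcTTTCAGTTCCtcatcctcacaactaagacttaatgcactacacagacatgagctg

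The libraries behind these regions differed in depth and in the length of their lists. P9 libraries had 13.4 to 20.9 M fragments and only 1168 to 2068 IRF8 regions each, whereas adult libraries had 7.25 to 24.7 M fragments and 17048 to 29667 regions. Macrophage replicate 3, the only macrophage library of batch 2, stood apart with 9788 regions against 16994 and 23163 in the batch 1 libraries. Adult IRF8 replicate 3 was also of batch 2, and it had a peak at 96.8% of early regions but at 60.8% of the other adult regions, against 87.6% and 98.7% in the batch 1 libraries. IRF8KO H3K27ac replicate 2 was shallow, with 8.57 M fragments and 31524 regions against 88400 in replicate 1. PU.1 replicate 2 was called against another control and at a looser threshold than replicate 1, in WT and IRF8KO alike. As a check of the cell type, a WT H3K27ac consensus region lay within 1 kb of a start of 9 of 10 microglial marker genes, all but Tmem119, and of 0 of 8 peritoneal macrophage and 0 of 8 neuronal markers. It lay at 2 of 6 astrocyte and 3 of 8 oligodendrocyte markers, and the part of those cells in the results was not tested.

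Early regions were wide and strong in the adult. Their median width was 1842.5 bp against 1041 bp for the other adult regions, and the P9 region inside them was narrower, with a median of 552 bp. In 96.0% of the pairs the P9 region lay wholly inside the adult one, covering a median of 30.9% of it, with a median distance of 216.5 bp between the centres. Adult peak strength was ranked within each list by the authors' −log10 p-value, and the median percentile was 92.4 for early regions and 56.5 for the others. A peak in all 3 adult libraries was found at 95.0% of early regions and at 47.1% of the others. Of the 1374 P9 consensus regions, 1325 overlapped an adult consensus region and 49 did not.

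Each P9 library on its own covered only part of the early regions: 70.9%, 66.1%, 88.4% and 60.6% of them had a peak in P9 replicates 1 to 4. Replicate 3, the deepest P9 library, was the highest of the 4. A total of 549 early regions had peaks in 2 P9 libraries, 400 in 3 and 365 in all 4. Without P9 replicate 3 the number of early regions was 874. It was 354 when every library of a group had to have the peak, 600 with peaks of −log10 p of at least 10, and 576 with all IRF8 lists cut to the length of the shortest, 1168 regions.

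Just inside and just outside the cut, the values changed gradually. The 549 early regions with 2 P9 libraries overlapped a WT PU.1 consensus region in 67.4% and a macrophage IRF8 consensus region in 75.4%, at a median adult percentile of 88.2. Of all adult regions, 27% overlapped WT PU.1 and 39.5% macrophage IRF8. The 1410 other adult regions with a peak in 1 P9 library did so in 51.9% and 61.1%, at a median adult percentile of 79.8, and the 14170 with none in 19.9% and 33.4%. At the other end, early regions with all 4 P9 libraries reached 84.1% for WT PU.1 and 87.9% for macrophage IRF8. WT H3K27ac, found at 81.8% of all adult regions, started high and moved less, from 80.3% with no P9 library to 94.0% with 4. Adult strength rose along the same order, so the number of P9 libraries and strength move together here.

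**Figure D1:**
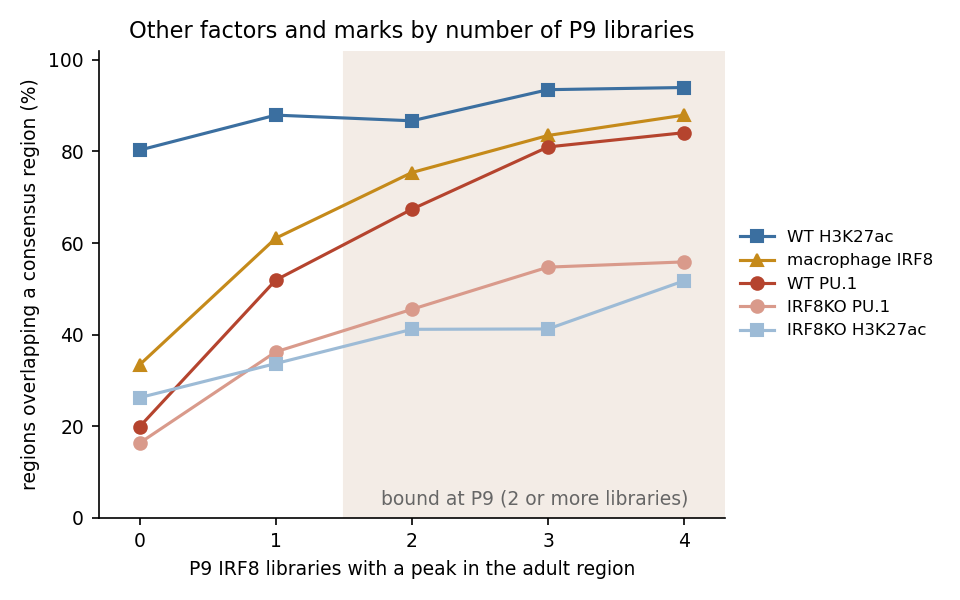
Share of adult IRF8 regions that overlap a consensus region of each target (y axis, %) by the number of P9 IRF8 libraries with a peak in them (x axis). The shaded part holds the early regions, where WT PU.1 goes from 67.4% to 84.1%. Points at 0 and 1 leave out no region except 41 whose 2 or more P9 peaks did not merge into a consensus region.

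The 12 strongest named P9 regions included introns of the interferon pathway genes Plscr1 and Tyk2. Regions are named by the protein-coding gene with the nearest start, and the start of another transcript can be nearer. Values below are the authors' fold enrichment of the strongest peak that overlaps the region over the library's own control, each an authors' value for that peak, which for the histone marks can reach beyond the region. In the intron of Plscr1, an interferon-inducible phospholipid scramblase (chr9:92269533-92270730), the P9 folds were 20.9, 24.8, 24.7 and 28.1. The adult folds there were 25.3, 21.4 and 19.1, and the P14 folds 42.1, 66.1 and 31.9. P9 and adult values overlapped at Plscr1, and the P14 libraries all lay above both. In the intron of Tyk2, a kinase of the interferon receptors (chr9:21125016-21126457), the P9 folds were 14.7, 11.8, 15.0 and 8.25, and the adult folds 55.2, 47.0 and 21.6. The groups did not overlap at Tyk2, with the adult libraries higher.

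Wdfy4, which dendritic cells need for cross-presentation, had an early region at its start (chr14:33184096-33186524) with P9 folds of 18.7, 16.3, 14.4 and 15.0 and adult folds of 46.2, 53.0 and 31.7. Upstream of the start of Mbnl1, a splicing regulator (chr3:60468217-60475965), the P9 folds were 21.0, 20.8, 25.2 and 18.9, and the adult folds 98.0, 75.5 and 46.5. Adult libraries lay above P9 libraries at both. The early region within 10 kb of the myeloid lectin gene Cd33, and nearest to the protein-coding gene Zfp658 (chr7:43551815-43555244) had P9 folds of 12.1, 16.6, 13.4 and 13.1 and adult folds of 46.2, 36.2 and 26.97. Its macrophage IRF8 peak was in 1 of 3 libraries, with a fold of 4.32. A distal region whose nearest protein-coding gene by start is Cd83, an activation marker of antigen-presenting cells, lay 134764 bp from it (chr13:43919169-43920730), with P9 folds of 17.6, 19.9, 11.03 and 13.1 and no peak in any macrophage library. Each age was called against a control of its own, so stage and control cannot be told apart in these folds. The other strongest P9 regions lay nearest to Ppp1r15b, Synpr, Pfkfb3, Rapgef1, Secisbp2l and Commd8, with P9 folds between 8.04 and 22.8.

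IRF8 and PU.1 were found far more often at early regions than at the other adult regions, in every library that did not choose them. P14 peaks lay at 95.8%, 99.2% and 93.4% of early regions in replicates 1 to 3, against 33.3%, 65.8% and 29.2% of the others. Macrophage peaks lay at 86.1%, 82.8% and 44.8% of early regions against 49.5%, 41.1% and 13.1%. No P14 library overlapped between the classes, and replicate 3 of the macrophages was low in both. Over these 6 libraries the share was 45.04 points higher at early regions (SD 14.6, n = 6), higher in 6 of 6, with an exact two-sided sign-flip permutation p of 0.03125. That is the smallest p this design can give, and it was 0.125 after Benjamini-Hochberg adjustment over the 4 targets. Among the macrophage libraries the difference was 36.7 and 41.7 points in batch 1 and 31.7 in batch 2.

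WT PU.1 peaks lay at 85.7% and 82.0% of early regions against 40.6% and 31.1% of the others. IRF8KO PU.1 peaks lay at 60.3% and 60.4% against 28.4% and 27.8%. Early regions were higher in 4 of 4 PU.1 libraries, by 40.1 points (SD 9.41, n = 4), with an exact p of 0.125, the smallest that 4 libraries allow, and 0.125 after adjustment. H3K27ac was 11.7 points higher (SD 6.38, n = 4) and H3K4me1 3.67 points higher (SD 1.07, n = 4), each in 4 of 4 libraries and each with the same exact p of 0.125. None of the 4 targets passed 0.05 after adjustment. With the lists of a target cut to equal length, the differences were 27.7 points for IRF8 and 17.0 for PU.1.

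**Figure D2:**
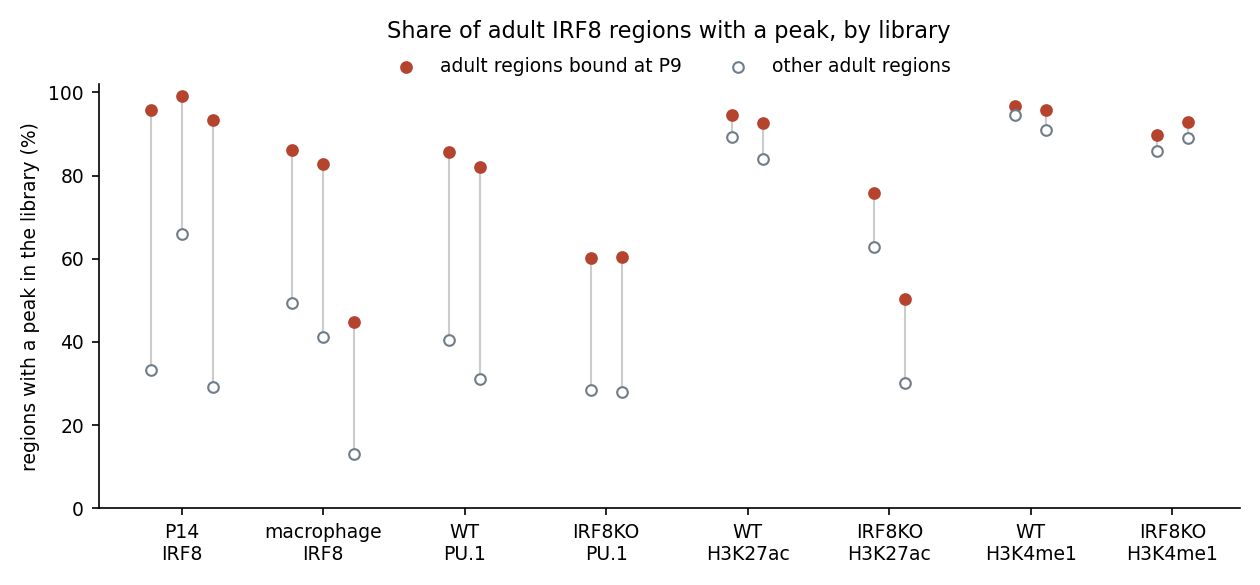
Share of early regions (filled) and of other adult regions (open) that have a peak in each library (y axis, %), 1 pair of points per library. The P14, macrophage and PU.1 pairs are far apart, while the H3K4me1 pairs differ by 2.202 to 4.76 points.

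The differences were smaller between regions of like strength or width. Within 10 equal bins of adult IRF8 strength, weighted by the early regions, IRF8 was 19.8 points higher at early regions (exact p = 0.03125, adjusted 0.125, n = 6, higher in 6 of 6) and PU.1 19.7 points higher (exact p = 0.125, n = 4, higher in 4 of 4). Within 10 bins of width they were 33.5 and 28.9 points higher. H3K27ac was 6.12 points higher within the bins of strength and 1.61 within the bins of width, where 3 of 4 libraries were higher (exact p = 0.375). H3K4me1 gave a difference of -1.36 points within the bins of width, with 1 of 4 libraries higher (exact p = 0.25). The strongest of the 10 bins held 835 early and 858 other regions. A WT PU.1 consensus region was found there at 83.2% of early and 56.8% of other regions, and a macrophage IRF8 consensus region at 85.1% and 63.8%. That bin spans percentiles 89.1 to 100, and width was not matched in it.

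**Figure D3:**
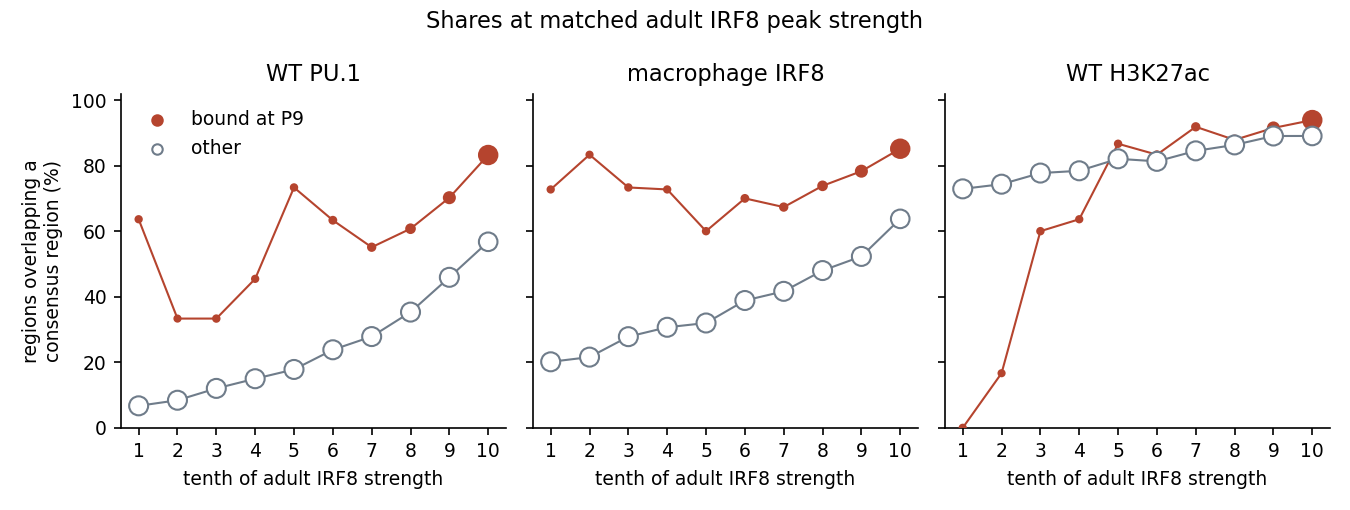
Share of regions overlapping a consensus region (y axis, %) in 10 bins of adult IRF8 peak strength (x axis, 10 is strongest), early regions filled and other adult regions open, with point size by number of regions up to a ceiling. Most early regions lie in bin 10, and the 11, 6, 15 and 11 early regions of bins 1 to 4 give rough values.

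Taken as consensus regions, 98.0% of early regions were also bound at P14, where 43.2% of all adult regions were. A macrophage IRF8 consensus region lay at 81.4%, against 39.5% of all adult regions, and a WT PU.1 consensus region at 76.2%, against 27%. The macrophage share was 42.2% without macrophage replicate 1 and 43.2% without replicate 2, but 78.9% without the short list of replicate 3, and it was 38.0% with IRF8 lists of equal length. WT H3K27ac lay at 90.8% (81.8% of all adult regions) and WT H3K4me1 at 95.3% (91.3% of all).

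Early regions sat at promoters less often and between genes more often than the other adult regions. Their centre was within 1 kb of a transcription start in 25.1%, in another exon in 3.42%, in an intron in 38.0% and intergenic in 33.5%. For the other adult regions these shares were 34.2%, 3.88%, 38.1% and 23.8%. The promoter share of early regions was 27.3% for those with 2 P9 libraries, 27.75% with 3 and 18.9% with 4. Early regions had 1108 nearest protein-coding genes, 164 of which had 2 or more. Marcks, a protein kinase C substrate at the membrane that microglia express strongly, was nearest to 5 of them, and Ccr1, Ctsc, Etv6, Babam2 and Fam129a to 4 each. No test was made for position.

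The composite element lay close to the P9 centre. It was found within 100 bp of the P9 region's centre in 203 of the 1314 early regions (15.4%). Within 100 bp of the centre of the wider adult region it was found in 8.14%, and in windows of the same 201 bases 1 kb away in 2.51% and 3.04%. The centres of the other adult regions held it in 6.12%. Inside early regions there were 0.515 elements per kb in the part that P9 regions cover and 0.152 per kb in the rest. Around the strongest P9 summit, as the authors' caller placed it, the share was only 4.87%. A match is a stretch of letters and not a binding site.

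**Figure D4:**
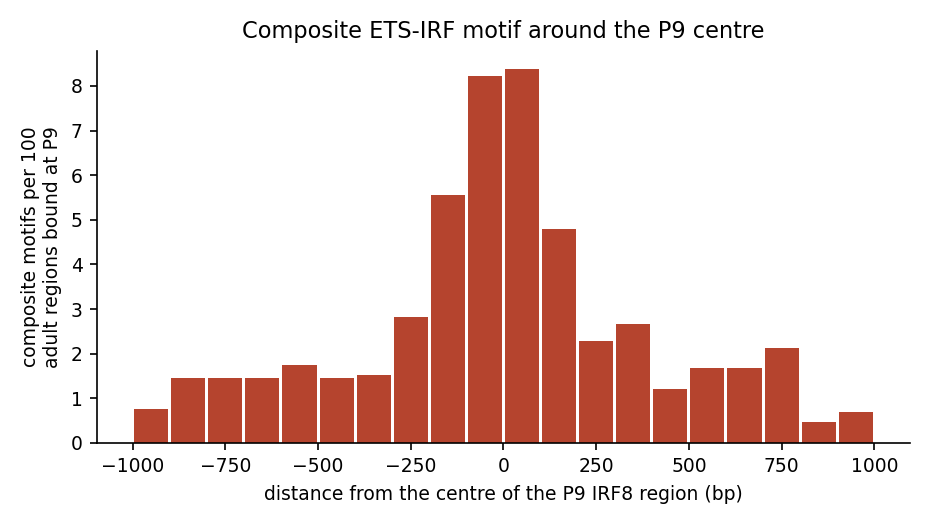
Composite elements per 100 early regions (y axis) in bins of 100 bp from the centre of the P9 region (x axis, bp). The 2 central bins reach 8.22 and 8.37, and bins beyond 500 bp lie between 0.457 and 2.13.

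The ETS core AGGAAGT, which can overlap the composite element, was within 100 bp of the P9 centre in 22.8% of early regions, in 13.2% around the centre of the adult region and in 5.71% and 6.70% 1 kb away. It was at the centre in 14.1% of the other adult regions. The IRF repeat, GAAA and again GAAA with NN between, stood at 4.41% at the P9 centre and 2.97% at the centre of early regions, and at 4.31% at the centre of the others. For the AP-1 element TGANTCA these shares were 8.52%, 7.91% and 6.25%. Early regions with the composite element at the P9 centre overlapped WT PU.1 in 75.4%, close to the 76.3% of those without it. In IRF8KO the shares were 41.4% and 53.0%, where 20.8% of all adult regions overlapped a PU.1 consensus region.

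Fewer early regions had PU.1 in IRF8KO than in WT. With the same control and threshold, replicate 1 went from 85.7% of early regions in WT to 60.3% in IRF8KO, and replicate 2 from 82.0% to 60.4%. The whole list was shorter in IRF8KO for replicate 1 (10182 against 14057 regions) but longer for replicate 2 (12509 against 9490). The other adult regions fell by 12.2 points in replicate 1 and by 3.30 points in replicate 2, where early regions fell by 25.4 and 21.6 points. These drops start from unlike WT shares, as the other adult regions had 40.6% and 31.1% in WT. Among regions with a WT PU.1 consensus region, 28.5% of early and 33.8% of other regions had no peak in IRF8KO replicate 1. In IRF8KO replicate 2 it was 28.4% and 35.3%. With 2 libraries a genotype no exact test can pass 0.05, so none was made.

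Of the 1001 early regions with a WT PU.1 consensus region, 206 (20.6%) had no PU.1 peak in either IRF8KO library, against 22.1% of all adult regions with WT PU.1. Counted as absent from the IRF8KO consensus, the share was 37.1%. By that count PU.1 was kept at 630 of 1001 early regions and at 1886 of 3579 other adult regions, so the others lacked it more often. Early regions had stronger WT PU.1 peaks than the other adult regions (median percentile 85.3 against 67.9). Within 10 bins of WT PU.1 strength the share was 20.6% at early regions and 14.6% at the others, and it was 28.5% against 23.5% in IRF8KO replicate 1 and 28.4% against 24.6% in replicate 2. A further 165 early regions kept the peak in 1 IRF8KO library, and 630 (47.9% of all early regions) had a PU.1 consensus region in both genotypes, against 12.1% of the other adult regions. A PU.1 consensus region in IRF8KO but not in WT was found at 43 early regions (3.27%) and 6.13% of the others, and 5 of the 43 had no PU.1 peak in either WT library.

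Among the early regions where PU.1 was absent in IRF8KO, the strongest by adult IRF8 were 10 named ones: Pla2g4a, Ripor2, Filip1l, Prr5l, Ehf, Stk35, Commd8, Hdhd5, Tyk2 and Plscr1. At an internal start of Pla2g4a, the cytosolic phospholipase A2 gene (chr1:149840099-149841980), WT PU.1 folds were 18.2 and 10.8. Its H3K27ac folds were 11.4 and 11.96 in WT and 3.22 in 1 of the IRF8KO libraries. At Commd8 (chr5:72181329-72185430) the WT PU.1 folds were 23.2 and 14.6, and at Hdhd5, whose sequence is printed above, 20.7 and 6.98. WT libraries had the peak in each case and the IRF8KO libraries did not, so no fold between genotypes can be given. At Mbnl1 PU.1 was listed in all 4 libraries, with folds of 105 in WT and 62.2 in IRF8KO in replicate 1 and of 62.1 and 52.4 in replicate 2. The IRF8KO value was the lower one in both replicates.

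PU.1 was absent in IRF8KO more often away from promoters. The share was 12.8% of the 257 with WT PU.1 within 1 kb of a start, against 23.3% of the 744 farther away. Replicate by replicate it was 18.7% against 31.9% and 21.0% against 30.9%. The other adult regions showed a like contrast, so it was not particular to early regions. Their share was 14.1% of the 1023 with WT PU.1 within 1 kb of a start. It was 29.9% in other exons, 26.5% in introns and 24.1% between genes. Where the composite element was at the P9 centre, PU.1 was absent in 36.6% in IRF8KO replicate 1 and 39.9% in replicate 2, against 27.005% and 26.3% without it. Within 5 bins of WT PU.1 strength, those differences were 8.01 and 12.2 points. Both libraries gave the same direction, and no test was made.

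H3K27ac was also found at fewer early regions in IRF8KO. An IRF8KO consensus region of the mark lay at 44.1% of them, against 28.3% of all adult regions, and 575 early regions had one in both genotypes. Replicate 1 went from 94.4% in WT to 75.7%, and replicate 2, where the IRF8KO library was shallow, from 92.5% to 50.2%. The other adult regions went from 89.2% to 62.9% and from 84.0% to 30.2%, a larger drop in both. Of 1193 early regions with WT H3K27ac, 199 (16.7%) had no H3K27ac peak in either IRF8KO library, against 23.9% of all adult regions with it. The share was 47.0% without IRF8KO replicate 1, where the shallow library alone decided, 39.7% with peaks of −log10 p of at least 10, 31.3% when the mark had to lie at the region's centre, and 51.8% when counted as absent from the IRF8KO consensus. By the last count H3K27ac was kept at 575 of 1193 early and 4135 of 12657 other adult regions, so the others lacked it more often. In the shallow library alone, 64.3% of the other adult regions lacked it. The 39.7% and 31.3% have no value for the other adult regions beside them. Within 10 bins of WT H3K27ac strength, 19.6% of early and 20.7% of other regions lacked it in replicate 1, and 47.0% and 55.7% in replicate 2. Among the microglial marker genes, 4 of 10 had an IRF8KO H3K27ac consensus region at a start, where 9 had one in WT. Markers of other cells were also fewer, with 0 of 6 astrocyte and 0 of 8 oligodendrocyte genes in IRF8KO against 2 and 3 in WT. All H3K27ac consensus regions together went from 36697 in WT to 10555 in IRF8KO, so the fall was not particular to marker genes.

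Loss of the mark went along with absence of PU.1. Of the 188 early regions with WT H3K27ac where PU.1 was absent in IRF8KO, 67 (35.6%) had no IRF8KO H3K27ac peak either. Where PU.1 had a consensus region in both genotypes it was 30 of 599 (5.01%). IRF8KO replicate 1 gave 42.0% against 7.01% and replicate 2 gave 72.9% against 29.5%. The other adult regions showed a like contrast, 34.0% against 8.50%, so it was not particular to early regions. The 206 early regions where PU.1 was absent were narrower than the 630 with PU.1 in both genotypes (median 1674 against 2133.5 bp). They also lay less often within 1 kb of a start (16.0% against 29.8%), and the contrast was matched for neither. H3K4me1 had an IRF8KO consensus region at 89.3% of early regions, against 86.3% of all adult regions. Of those with it in WT, 45 of 1252 (3.59%) had no IRF8KO peak, against 4.49% of all adult regions with WT H3K4me1. That share was 7.67% without IRF8KO replicate 2, 5.54% with the mark required at the centre, and 8.15% when counted against the IRF8KO consensus.

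The strongest early regions that lacked H3K27ac in IRF8KO were nearest to Batf3, Psap, Myc, Galnt1, Tcf7l2, Usp6nl, Nebl, Ehf, Zfp770 and Gcfc2. Downstream of Batf3, a basic leucine zipper factor that partners with IRF factors (chr1:191114345-191116586), H3K27ac folds were 10.5 and 10.0 in WT and no peak was listed in IRF8KO. PU.1 folds there were 5.55 and 6.90 in WT, again with no IRF8KO peak, while H3K4me1 was 4.38 and 3.42 in WT and 4.89 and 3.75 in IRF8KO. IRF8 at this Batf3 region had P9 folds of 8.45, 5.14, 9.36 and 9.005 and adult folds of 26.5, 26.2 and 19.9. The 3 signals thus parted at Batf3: H3K4me1 overlapped between genotypes, and PU.1 and H3K27ac were listed in WT libraries alone.

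Upstream of Psap, which encodes the lysosomal precursor prosaposin (chr10:60273166-60274637), H3K27ac folds were 4.32 and 3.03 in WT, with no IRF8KO peak. PU.1 there was 12.03 and 6.87 in WT and 9.08 and 7.31 in IRF8KO, so its values overlapped. At the region whose nearest protein-coding gene is Gcfc2, whose start is 475610 bp away (chr6:81447282-81448837), WT folds were 10.6 and 7.93 for PU.1, 10.4 and 12.8 for H3K27ac and 4.69 and 3.31 for H3K4me1. None of these had a peak in IRF8KO.

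Early regions without a macrophage peak lacked PU.1 and H3K27ac in IRF8KO more often than those shared with macrophages. A total of 136 early regions (10.4%) had no IRF8 peak in any macrophage library, against 42.4% of the other adult regions, and 1069 had a macrophage consensus region, of which 552 had a peak in all 3 macrophage libraries. Those without a macrophage peak were within 1 kb of a start in 7.35%, against 27.5%, and overlapped WT PU.1 in 61.0%, against 79.5%. PU.1 was absent from both IRF8KO libraries at 40 of their 83 WT PU.1 regions (48.2%), against 17.5% of 850 shared ones. H3K27ac was absent at 48 of 123 (39.0%) against 13.7% of 971. The PU.1 shares were 59.0% against 25.2% in IRF8KO replicate 1 and 55.4% against 25.2% in replicate 2, and the H3K27ac shares 39.8% against 16.6% and 74.0% against 42.4%.

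The gaps were also seen between regions of like WT strength and away from promoters. Within 5 bins of WT strength, the difference over both IRF8KO libraries was 27.5 points for PU.1 and 23.7 points for H3K27ac. Among early regions more than 1 kb from a start, it was 53.3% against 19.3% for PU.1 and 40.9% against 14.4% for H3K27ac. The other adult regions without a macrophage peak also lacked PU.1 (36.8% against 15.8%) and H3K27ac (33.7% against 17.6%) more often, so the contrast was not particular to early regions. With IRF8 lists of equal length the differences at early regions came to 6.27 points for PU.1 and 8.51 for H3K27ac, where many more regions count as lacking a macrophage peak.

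**Figure D5:**
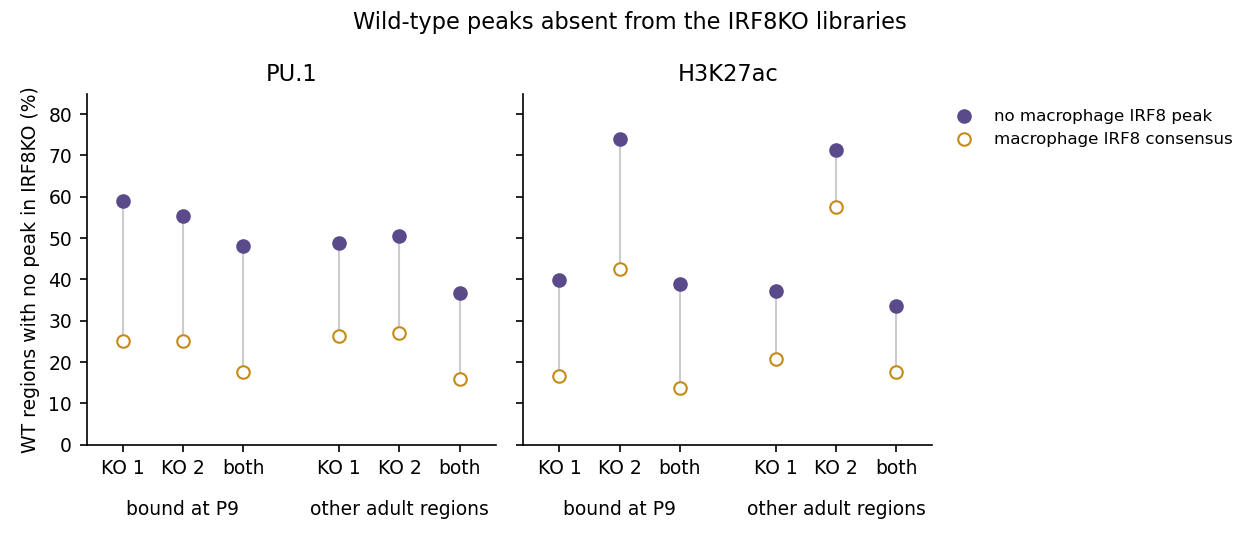
Share of regions with a WT consensus region of PU.1 (left) or H3K27ac (right) that have no peak in IRF8KO replicate 1 (KO 1), in replicate 2 (KO 2) or in both of them (both), on the y axis (%). Filled points are regions without a macrophage IRF8 peak and open points those in the macrophage consensus; at early regions PU.1 absence from both is 48.2% against 17.5%.

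The strongest early regions without a macrophage peak included those nearest to St18, Arhgap18, Wscd1, Rtn1, Cd83, Mycbp2, Npnt, Fam184b and Gcfc2. In an intron of Rtn1, a reticulon gene (chr12:72361577-72363228), P9 folds were 6.74, 4.45, 7.98 and 5.02, and adult folds 32.4, 16.9 and 15.2. PU.1 there was 28.2 and 9.81 in WT and 8.87 and 6.92 in IRF8KO, with both IRF8KO values under both WT values. In an intron of St18, a zinc finger factor gene (chr1:6491158-6494321), IRF8 had adult folds of 23.9, 23.0 and 30.9 without any PU.1 or H3K27ac peak in either genotype, and H3K4me1 was listed in WT alone.

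Genes were called as having an early region when 1 lay in them or within 10 kb. This held for 5.37% of all protein-coding genes and for 12.3% of those with any adult IRF8 region. Homeostatic microglial genes with an early region included Cx3cr1, P2ry12, Siglech and Trem2. Of the disease-associated microglial genes, 4 of 15 did (Axl, Ccl6, Cd68 and Fabp5), and of 15 lysosomal genes 5 (Ctsb, Ctsc, Ctsh, Grn and Lamp1). No test was made of any list.

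P2ry12, the purinergic receptor that marks resting microglia and guides their processes, had 3 early regions in introns that it shares with Med12l. At the one whose sequence is printed above (chr3:59224609-59226067), IRF8 folds were 5.51, 4.34 and 5.63 in 3 of the 4 P9 libraries and 15.0, 18.3 and 6.45 in adults. Its PU.1 folds were 10.6 and 9.14 in WT, with no peak in IRF8KO. H3K27ac was listed there in both WT libraries, with a fold of 4.73 in replicate 1, and in neither IRF8KO library. In WT replicate 2 the H3K27ac peak also spans the next P2ry12 region, and the H3K4me1 peaks of both genotypes span both, so their folds are not given for this site. The other two P2ry12 regions kept PU.1 and H3K27ac in both IRF8KO libraries, for example with PU.1 folds of 12.9 and 8.84 in WT and 6.59 and 6.54 in IRF8KO at chr3:59228101-59232002. PU.1 was thus absent at 1 of the 3 early regions of the gene.

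At the start of Trem2, the lipid receptor of microglia (chr17:48346021-48348373), P9 folds were 6.57, 9.29 and 5.96 in 3 of 4 libraries, and PU.1 was 13.6 and 7.24 in WT and 10.2 and 9.18 in IRF8KO, which overlap. The early region counted for Siglech lies nearer to Tubgcp5 and had no macrophage peak. The early region of Cx3cr1, the fractalkine receptor, had no H3K27ac peak in any library and no peak in 1 of 3 adult IRF8 libraries.

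Of 11 interferon-inducible GTPase genes 5 had an early region (Gbp3, Gbp5, Gbp7, Tgtp1 and Tgtp2), and of 11 class I presentation genes 5 (H2-D1, Psmb8, Psmb9, Tap1 and Tap2). The last 4 shared 1 region at the Psmb8 start, and Gbp5 and Gbp7 shared another. Psmb8, Psmb9, Tap1 and Tap2 are neighbours, so this region counts for each. Reads at the near-identical copies of these families may have been placed on either copy, so which copy is bound is uncertain. None of 19 type I interferon-stimulated genes with a match had an early region. Of these, 11 had an adult region, so 0 is close to what the 5.37% of all genes and the 12.3% of genes with an adult region give. At the start of Gbp7 (chr3:142529649-142531231), P9 folds were 8.45, 7.25, 7.98 and 7.88 and adult folds 18.2, 17.8 and 7.62. PU.1 at Gbp7 was 7.06 and 5.78 in WT and had no IRF8KO peak, while H3K27ac was 6.17 and 6.54 in WT and 6.08 and 6.71 in IRF8KO.

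Among the IRF and STAT genes 4 of 13 had an early region: Irf1, Irf2, Irf5 and Irf9. The region upstream of Irf5, which relays toll-like receptor signals (chr6:29522534-29526898), had IRF8 in all libraries, with P9 folds of 8.45, 15.4, 11.4 and 11.7, P14 folds of 25.8, 35.05 and 17.0 and adult folds of 47.1, 21.3 and 17.9. Macrophage folds there were 18.6, 13.8 and 7.21. PU.1 at Irf5 was 16.4 and 10.3 in WT and 8.52 and 12.1 in IRF8KO, which overlap. Of the lineage factors, 4 of 26 had an early region (Fli1, Mef2c, Runx1 and Zeb2), and of the AP-1 and BATF factors 2 of 11 (Atf3 and Batf3). The intronic Fli1 region printed above had P9 folds of 5.88, 4.84, 7.02 and 6.003 and adult folds of 13.2, 10.8 and 15.1. PU.1 there was listed with a fold of 5.47 in 1 of the WT libraries and with folds of 3.95 and 7.27 in IRF8KO.

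Complement counted 4 of 11, where C1qa, C1qb and C1qc share the region at the C1qb start (chr4:136884494-136886971) and C3ar1 has its own. The C1qb region had P9 folds of 5.49, 5.70, 7.13 and 7.64, adult folds of 27.5, 25.04 and 14.5, and PU.1 folds of 18.3 and 14.5 in WT and 18.6 and 13.4 in IRF8KO, which overlap. Fc gamma receptors counted 2 of 5 (Fcer1g and Fcgr1). The region upstream of Fcgr1, the high-affinity IgG receptor, had P9 folds of 7.45, 7.37, 10.8 and 4.13 and kept PU.1 and H3K27ac in all IRF8KO libraries. Toll-like receptor genes counted 3 of 16 (Tlr3, Tlr4 and Unc93b1), inflammasome genes 3 of 12 (Il1b, Naip6 and Nlrp3), and chemokine genes 3 of 16 (Ccl12, Ccr1 and Cmklr1).

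Upstream of Il1b, the interleukin 1 beta gene (chr2:129379150-129382627), P9 folds were 8.73, 8.76, 16.0 and 6.75 and adult folds 20.6, 29.7 and 16.8. PU.1 at Il1b was 15.8 and 13.8 in WT and 4.75 and 9.56 in IRF8KO, with no overlap. Of myeloid genes tied to Alzheimer risk, 3 of 15 had an early region (Cd33, Inpp5d and Tspoap1). Class II presentation counted 1 of 8 (Ctss) and the TGF-beta pathway 1 of 12 (Tgfb1). Among markers of other cell types, 0 of 8 peritoneal macrophage, 0 of 8 neuronal and 0 of 6 astrocyte genes had an early region, and 1 of 8 oligodendrocyte genes did (Cnp). Only 2 of the peritoneal macrophage, 1 of the neuronal and 3 of the astrocyte genes had any adult region. At 5.37% of all genes and 12.3% of genes with an adult region, 0 is close to what such short lists give.

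A few early regions lay in repeats. At least 80% of the sequence was repeat-masked in 17 of them, out of 92 such adult regions, all 17 with a macrophage consensus region, and H3K27ac in WT at 1 of the 17. Chromosome Y held 7 early regions of its 17 adult regions (41.2%), with a median repeat content of 71.4%, although all libraries are labelled female. Their median adult percentile was 26.5. The widest early region, 38131 bp, was also the only one over 10 kb. Leaving out the repeat-masked regions left 1297 early regions, with WT PU.1 at 76.4% and macrophage IRF8 at 81.1%.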

How the data were processed

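Peak lists of 25 CUT&RUN libraries were used, and 4 IgG libraries entered only as the authors' controls. Per the file headers the authors called peaks per library with MACS (2.2.7.1 for IRF8 and PU.1, 2.2.6 for the histone marks), at a q-value of 0.01 (0.05 for PU.1 replicate 2), and H3K4me1 at a p-value of 0.01. Deposited for each peak are its −log10 p-value and its fold over the control, per the file headers. They were used to rank, filter or describe peaks within a list. The submitters' processing notes name mm10, Bowtie2, Trim Galore, bcl2fastq, deepTools and MACS2. No count or depth per peak was used, so no interval is given for a share.

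Each listed region was used once. Strength is the mean within-list percentile of −log10 p, and standardised values use 10 strata (5 for splits of early regions). Genes came from GENCODE vM21 and sequence from GRCm38.p6, whose chromosome names and lengths fit the peaks. Shares were compared within each library, and the differences tested over libraries by an exact two-sided sign-flip permutation test, adjusted over the 4 targets. The functions were tested on simulated data. Analyses used Python 3.11.15, pandas 2.3.3, numpy 2.4.6 and pysam 0.24.0.

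Named genes are those of 21 lists with an early region within 10 kb, the 12 strongest P9 regions present in all P9 and adult libraries, and up to 10 by adult strength with WT PU.1 and no IRF8KO peak, with WT H3K27ac and no IRF8KO peak, and with no macrophage peak. The regions and lists were chosen with earlier results of these data known. Alternatives were the consensus rule, peak threshold, merging distance, overlap rule, list length, exclusion of wide or chromosome Y and M regions, strata, and leaving out each library. Finer strata, joint strata, the exclusion of repeats, the splits by macrophage peak and the motif at the P9 centre were chosen after seeing the data. Some genes that the rule names are not reported here.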

Additional observations from a re-analysis of the deposited data

Results flagged for a closer look

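In each group of 4 P9 libraries, 1 library was checked against the other three by Dixon's ratio, over 48 sets of values, of which chance alone flags about 1 in 20. At the Filip1l region the P9 IRF8 fold of replicate 3 was 5.83, against 10.3, 10.9 and 10.1 in the others. At Secisbp2l replicate 2 gave 8.04 against 11.6, 11.03 and 11.6, and at Ctsh replicate 1 gave 3.43 against 4.54, 4.53 and 4.38. In each case a low value flagged the region, and the library differed.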

How the results depend on the processing

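No paired analysis was possible because the comparison of genotypes comes from no test; its differences within each replicate number are given in the report as values. Of 327 alternatives, 242 kept their value within its limit, 83 moved and 2 reversed; no adjusted p fell under 0.125. The cause was not tested for any of the changes below.

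The number of early regions was 354 with a peak required in every library, 600 at −log10 p of at least 10 and 576 with lists of equal length. In the same order, WT PU.1 overlapped 85.03%, 63.8% and 84.5% of early regions, WT H3K27ac 95.2%, 80.7% and 86.1%, and WT H3K4me1 98.0%, 96.8% and 97.9%, and PU.1 was absent in IRF8KO at 22.9%, 28.2% and 20.7%. The composite element at the P9 centre stood at 16.4%, 14.7% and 14.1%, and at the region's centre at 10.2% with −log10 p of at least 10. Equal lists gave 78.6% for P14 and 38.0% for macrophages. H3K27ac absence was 39.7% at −log10 p of at least 10. With the peak required in every library the promoter share was 19.5%. The macrophage contrast in PU.1 absence, 30.7 points in the report's setting, was 46.7, 24.5 and 6.27 points, and that in H3K27ac absence, 25.3 points, was 33.2 with every library and 8.51 with equal lists.

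With the overlap required at the region's centre, WT H3K27ac was 88.5%, WT H3K4me1 93.8%, PU.1 absence 29.9%, H3K4me1 absence 5.54% and the PU.1 contrast 24.2 points. Counted against the IRF8KO consensus, absence at early regions was 37.1% for PU.1, 51.8% for H3K27ac and 8.15% for H3K4me1. By that count the other adult regions lacked PU.1 and H3K27ac more often. PU.1 absence was 20.3% without regions over 10 kb or on chromosomes Y and M and 20.4% without repeats, where WT H3K4me1 was 96.3%. The element stood at 4.87% at the strongest P9 summit, and the promoter share was 4.64% within 100 bp and 48.8% within 5 kb of a start. The H3K4me1 difference reversed to -1.36 points within bins of width and to -0.729 within joint bins of strength and width.

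Leaving out each library in turn, where a group left with 1 library was read from that list alone, gave these ranges. The number of early regions was 874 to 1291. The difference from other adult regions in IRF8 was 35.02 to 47.7 points, in PU.1 31.9 to 42.8, in H3K27ac 8.67 to 13.8 and in H3K4me1 2.97 to 4.66. Overlap was 90.8% to 99.4% for P14, 42.2% to 84.2% for macrophages, 77.0% to 85.7% for WT PU.1, 90.7% to 94.4% for WT H3K27ac and 94.8% to 96.7% for WT H3K4me1. Absence in IRF8KO ranged over 20.4% to 28.5% (PU.1), 16.1% to 47.0% (H3K27ac) and 3.38% to 7.67% (H3K4me1). The promoter share was 23.3% to 25.9%, the element 8.11% to 11.4% at the region's centre and 14.4% to 16.8% at the P9 centre, and the macrophage contrast 22.3 to 37.3 points for PU.1 and 21.1 to 31.6 for H3K27ac.

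A region without a peak is one below the authors' threshold in that library, so absence moves with depth and list length, and the P9 lists were the shortest.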
